A study of Mus musculus with 12 samples.

Results

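The genes described here are 8 of the 41009 gene symbols in the deposited expression table, chosen by symbol as genes of the retinoic acid receptor-related orphan receptors (RORs) and of type 17 immunity: Rora, Il17a, Il17f, Il23r, Il23a, Ccr6, Il17ra and Il17rc. RORs are nuclear receptors that bind a short DNA element and switch on clock genes in many tissues and the IL-17 programme in lymphocytes. In type 17 cells, which include T helper 17 cells, gamma delta T cells and type 3 innate lymphoid cells, IL-23 acts through its receptor to maintain the release of IL-17A and IL-17F. These cytokines bind a receptor made of the IL-17RA and IL-17RC chains on epithelial, stromal and myeloid cells, which answer with chemokines and growth factors that draw in neutrophils. Digoxin, a cardiac glycoside, is a known inhibitor of ROR gamma, which is the link between this gene group and a study of nanobodies against digoxin-like substances.

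RNA was measured in bulk tumours of the 4T1 line (transplantable mouse mammary carcinoma cells, here carrying mCherry) in the mammary fat pad of female BALB/c mice aged 4 to 5 weeks. From day 7 after injection of the cells, mice received an Fc fusion protein intraperitoneally. The 4 groups had 3 libraries each. VHH-OD-PD-1-Fc was given at a dose of 4.3 mg/kg, VHH-PD-1-Fc at a dose of 2.6 mg/kg, VHH-OD-Fc at a dose of 3.5 mg/kg and the control protein Ctrl-Fc (group Ctrl) at a dose of 5 mg/kg. VHH stands for a single-domain antibody fragment of camelid origin (a nanobody), Fc for the antibody stem, and PD-1 for a checkpoint receptor that restrains T cells. OD is not written out in the labels, although the series title names digoxin-like substances as the target. The tumour cells, the strain and the route were the same in the 4 groups, while the doses differed. No comparison of groups therefore differs by an arm alone, and arm and dose cannot be told apart. The labels do not say whether the libraries of a group came from separate mice, so the p-values here reflect library-to-library spread alone, and that spread may be technical.

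Promoter sequences show where the ROR element occurs near the start of these genes. RefSeq promoters (build GRCm38.p6, 250 bases before to 50 after the start site, on the gene's strand) were found for 6 of the 8 genes, and not for Il23a and Il17ra. The core of the element, AGGTCA, was searched on both strands, as TGACCT on the other, and 16.3% of all 32851 promoters held it. The longer form TAGGTCA, which overlaps the core, was in 2.61% of them. The 4 sequences below are those of both IL-17 cytokines, of the IL-23 receptor and, as a gene without a match that did change in the tumours, of Il17rc. Capitals mark the core.
Il17a, chr1:20730655-20730954, plus strand: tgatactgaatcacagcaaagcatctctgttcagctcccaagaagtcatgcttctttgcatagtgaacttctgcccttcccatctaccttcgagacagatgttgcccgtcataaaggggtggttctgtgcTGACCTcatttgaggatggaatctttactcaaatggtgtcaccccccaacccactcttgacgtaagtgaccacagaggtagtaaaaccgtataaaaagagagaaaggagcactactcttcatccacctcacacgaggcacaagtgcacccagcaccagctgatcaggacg
Il17f, chr1:20784221-20784520, minus strand: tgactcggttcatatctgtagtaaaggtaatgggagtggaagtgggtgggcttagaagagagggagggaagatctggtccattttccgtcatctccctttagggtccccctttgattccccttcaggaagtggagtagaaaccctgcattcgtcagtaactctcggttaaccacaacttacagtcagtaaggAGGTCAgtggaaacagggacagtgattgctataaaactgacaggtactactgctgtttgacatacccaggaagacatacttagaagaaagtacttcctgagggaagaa
Il23r, chr6:67491806-67492105, minus strand: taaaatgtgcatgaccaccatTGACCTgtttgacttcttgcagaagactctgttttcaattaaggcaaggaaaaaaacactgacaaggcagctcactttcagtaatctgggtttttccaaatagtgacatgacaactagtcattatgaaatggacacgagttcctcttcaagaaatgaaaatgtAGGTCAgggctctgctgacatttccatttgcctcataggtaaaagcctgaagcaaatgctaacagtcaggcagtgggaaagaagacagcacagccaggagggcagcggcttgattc
Il17rc, chr6:113471205-113471504, plus strand: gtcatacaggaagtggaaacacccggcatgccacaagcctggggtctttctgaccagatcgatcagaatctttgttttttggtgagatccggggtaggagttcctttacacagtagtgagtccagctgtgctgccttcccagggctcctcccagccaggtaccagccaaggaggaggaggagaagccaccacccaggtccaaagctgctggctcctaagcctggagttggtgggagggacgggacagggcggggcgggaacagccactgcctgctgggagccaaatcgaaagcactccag

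The core lay in reverse 120 bases upstream of the start of Il17a and forward 58 bases upstream of that of Il17f, a neighbour of Il17a on chromosome 1. Il23r held it in reverse 229 bases upstream and as the longer form 66 bases upstream. One of the 2 promoters listed for Ccr6 held the longer form in reverse 44 bases upstream, and those of Rora and Il17rc held no match. A match of letters is a description of these windows and not evidence that a receptor was bound there.

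The libraries held 43600000 to 60900000 counted reads on genes, recovered here from the FPKM values, with the mates of a pair counted singly, so 2 reads can be 1 fragment. Markers of tumour epithelium summed to between 1190 and 3700 FPKM in the 12 libraries, so the labelled epithelial tumour was present in each. FPKM, the unit throughout, is reads on a gene scaled to its exon length and to the library's depth, so levels of different genes can be compared. The 3 libraries of VHH-OD-PD-1-Fc stood apart by how alike they were: their pairwise Pearson's r across genes was 0.990 to 0.991, against 0.953 to 0.963 for VHH-PD-1-Fc, 0.966 to 0.982 for VHH-OD-Fc and 0.954 to 0.984 for Ctrl. Results of that group are given below also with its libraries counted as 1 sample. The PD-1 arm, averaged over both backgrounds, left 2915 of the 14306 genes tested higher and 5508 lower, so a change in that comparison was common among all genes, and the median gene shifted by -0.16 on the log2 scale. That split was 1859 and 7917 after rescaling each library to the same sum (TPM), 4058 and 3969 after median-of-ratios scaling and 3803 and 3798 after quantile normalization. The labels name no batch, so that arm and a batch shared by its libraries cannot be told apart.

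A gene entered the test across all genes, made with limma, when 3 or more libraries showed 1 FPKM or more, and Il23a, Il17ra and Il17rc did so. Calls are changes with an adjusted p (Benjamini-Hochberg) below 0.05. Rora, Il17a, Il17f, Il23r and Ccr6 were below that level and were tested with an exact permutation test over libraries, where libraries with and without 1 arm were exchanged within groups equal for the other arm. That test had 400 arrangements and could give no p below 0.005, while 3 libraries against 3 cannot go below 0.10 (exact test). Across the 5 low genes and both arms, 10 such two-sided exact permutation tests were run, and none passed 0.05; the smallest p was 0.065, for Il17f.

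Rora encodes ROR alpha, the family member that acts in many tissues besides lymphocytes. It had 0.413, 0.421 and 0.628 FPKM in the VHH-OD-PD-1-Fc libraries, 0.414, 0.275 and 0.965 FPKM in VHH-PD-1-Fc, 0.716, 1.1 and 0.732 FPKM in VHH-OD-Fc, and 0.543, 0.625 and 0.643 FPKM in Ctrl. The highest library was replicate 2 of VHH-OD-Fc, the lowest was replicate 2 of VHH-PD-1-Fc, and within VHH-PD-1-Fc the values spanned nearly that whole range. The VHH-OD-Fc libraries lay above all those of VHH-OD-PD-1-Fc and of Ctrl, but by limma without a filter neither difference was called (-0.31 for VHH-OD-PD-1-Fc against VHH-OD-Fc, adjusted p = 0.243, and 0.20 for VHH-OD-Fc against Ctrl, adjusted p = 1). The difference on the log2(FPKM + 1) scale was -0.19 for libraries with the PD-1 arm against those without (p = 0.115, exact permutation test, two-sided), and 0.08 for libraries with the OD arm against those without (p = 0.51, same exact test). These outcomes depended on a single library and, for the PD-1 arm, on the scaling. Without replicate 3 of VHH-PD-1-Fc, the differences were -0.28 with the PD-1 arm (p = 0.005, exact) and 0.17 with the OD arm (p = 0.025, exact). After rescaling to TPM the difference with the PD-1 arm was -0.47 (p = 0.035, exact permutation test).

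Adipocyte markers varied beside Rora as follows. Their summed level was 15 to 15.8 FPKM in VHH-OD-PD-1-Fc, 3.13 to 21.4 FPKM in VHH-PD-1-Fc, 42.9 to 179 FPKM in VHH-OD-Fc and 19.3 to 61.5 FPKM in Ctrl. The highest sum fell in replicate 2 of VHH-OD-Fc, where Rora was highest, and within VHH-PD-1-Fc in replicate 3, where Rora was also highest. That VHH-PD-1-Fc library, the second highest for Rora, had a lower adipocyte sum than any of VHH-OD-Fc and than 2 of Ctrl. In VHH-OD-PD-1-Fc the highest Rora (replicate 3) did not fall with the highest sum (replicate 1). None of the 8 adipocyte markers was at 0 throughout a group, and the part of this tissue in the Rora values was not tested. In bulk tumours, fewer cells of a type and less RNA per cell cannot be told apart. Rora overlaps the antisense gene Gm15511, and the use of strand in counting is not given in the sources used here, so its reads are uncertain.

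The type 17 cytokines themselves were close to the limit of detection. Il17a, the founding cytokine of the family, had 4, 2 and 0 reads in VHH-OD-PD-1-Fc, 0 reads in each library of VHH-PD-1-Fc, 2, 4 and 0 reads in VHH-OD-Fc, and 4, 0 and 2 reads in Ctrl. A count of 0 was taken to allow up to 3 reads, which for Il17a is 0.0421 to 0.0588 FPKM per library. Because the mates of a pair were counted singly, a floor set in fragments would lie higher. No difference between the groups was detectable for Il17a at this depth.

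**Figure D1:**
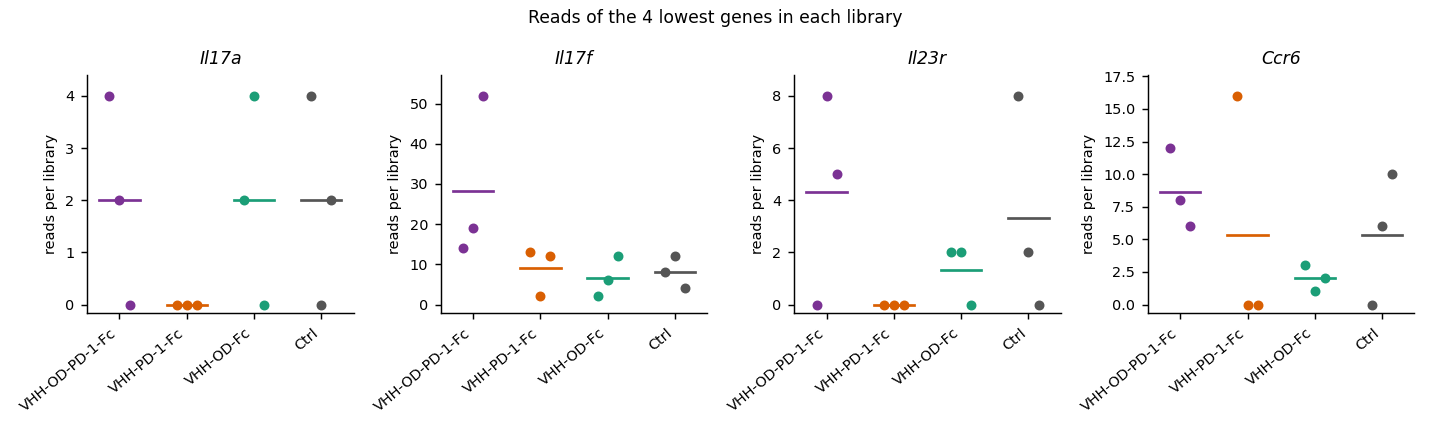
Reads per library (vertical axis, linear) of Il17a, Il17f, Il23r and Ccr6 in the 4 groups; points are libraries and bars are group means. Il17f reached 52 reads in 1 VHH-OD-PD-1-Fc library, and Il17a and Il23r had 0 reads in the 3 VHH-PD-1-Fc libraries.

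Il17f, whose product pairs with IL-17A and uses the same receptor, had more reads. It had 14, 19 and 52 reads in VHH-OD-PD-1-Fc, 13, 2 and 12 reads in VHH-PD-1-Fc, 2, 6 and 12 reads in VHH-OD-Fc, and 8, 12 and 4 reads in Ctrl. All 3 libraries of VHH-OD-PD-1-Fc stood above the 9 others in FPKM, by a narrow margin over replicate 1 of VHH-PD-1-Fc (0.143 against 0.141 FPKM). The group mean was 0.28 ± 0.199 FPKM in VHH-OD-PD-1-Fc, 0.0927 ± 0.062 FPKM in VHH-PD-1-Fc, 0.0586 ± 0.0382 FPKM in VHH-OD-Fc and 0.0781 ± 0.0386 FPKM in Ctrl (SD, n = 3 each).

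The higher Il17f in VHH-OD-PD-1-Fc passed no test. When limma was fitted to all 41009 genes with no filter, the log2 fold change of Il17f against Ctrl was 0.24 (SE 0.09, adjusted p = 0.103), against VHH-OD-Fc 0.26 (adjusted p = 0.0779) and against VHH-PD-1-Fc 0.22 (adjusted p = 0.398). Libraries carrying the PD-1 arm differed from the rest by 0.14 (p = 0.065, exact permutation test). It passed 0.05 without replicate 2 of Ctrl (p = 0.035), without replicate 2 of VHH-PD-1-Fc (p = 0.015), without replicate 1 of VHH-OD-PD-1-Fc (p = 0.045) and after median-of-ratios scaling (p = 0.04), all by the same exact test. The number of genes above 0 was 30348 to 31676 in VHH-OD-PD-1-Fc and 25553 to 30973 in VHH-PD-1-Fc, against 24924 to 26107 in VHH-OD-Fc and 25258 to 26203 in Ctrl, and its part in the values of low genes was not tested.

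The receptors that mark type 17 cells were as low as the cytokines. Il23r, the ligand-specific chain of the IL-23 receptor, had 0, 8 and 5 reads in VHH-OD-PD-1-Fc, 0 reads in each library of VHH-PD-1-Fc, 2, 2 and 0 reads in VHH-OD-Fc, and 8, 2 and 0 reads in Ctrl. Il17a and Il23r were thus the members without a read in VHH-PD-1-Fc, and both had reads in each of the other groups. For Il23r, 3 reads correspond to 0.0198 to 0.0277 FPKM, and the libraries with reads lay on both sides of that level. Here too a floor set in fragments would lie higher.

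Ccr6, the receptor for the chemokine CCL20 on type 17 cells and B cells, had 12, 8 and 6 reads in VHH-OD-PD-1-Fc, 16, 0 and 0 reads in VHH-PD-1-Fc, 3, 1 and 2 reads in VHH-OD-Fc, and 0, 6 and 10 reads in Ctrl. The groups overlapped except that VHH-OD-PD-1-Fc lay above VHH-OD-Fc in every library. For the OD arm neither Il23r (p = 0.57) nor Ccr6 (p = 0.99) passed the exact permutation test. For the PD-1 arm the exact p was 1 for Il23r and 0.325 for Ccr6. The 8 B cell markers summed to 0.615 to 1.01 FPKM in VHH-OD-PD-1-Fc, 1.74 to 5.79 FPKM in VHH-PD-1-Fc, 1.89 to 12.1 FPKM in VHH-OD-Fc and 1.94 to 38.1 FPKM in Ctrl, and their part in the Ccr6 values was not tested.

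Markers of the cells that could carry these low genes were detected in every group. The 12 T cell markers summed to 83.8 to 89.4 FPKM in VHH-OD-PD-1-Fc, 69 to 135 FPKM in VHH-PD-1-Fc, 81.6 to 112 FPKM in VHH-OD-Fc and 105 to 123 FPKM in Ctrl. The 9 markers of gamma delta T cells and type 3 innate lymphoid cells summed to 4.07 to 4.62 FPKM in VHH-OD-PD-1-Fc and 1.94 to 5.58 FPKM in VHH-PD-1-Fc, against 5.57 to 6.76 FPKM in VHH-OD-Fc and 6.79 to 11.1 FPKM in Ctrl. No marker of either list was at 0 in all libraries of a group. Of the gamma delta list, 2 of the 3 testable genes were lower with the PD-1 arm averaged, next to 38.5% of all genes tested. The part of these cells in the values of the low members was not tested.

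Il23a encodes the p19 subunit of IL-23, the cytokine that sustains type 17 cells, and was, of the 3 members tested with limma, the only one called higher in any of the comparisons. It had 20.7, 18.5 and 16.5 FPKM in VHH-OD-PD-1-Fc, 13.7, 9.84 and 8.58 FPKM in VHH-PD-1-Fc, 11.5, 14.2 and 13.8 FPKM in VHH-OD-Fc, and 9.32, 11.8 and 12.5 FPKM in Ctrl. The 3 libraries of VHH-OD-PD-1-Fc stood above all 9 others, which overlapped among their groups. The group means were 18.6 ± 2.12 FPKM in VHH-OD-PD-1-Fc, 10.7 ± 2.65 FPKM in VHH-PD-1-Fc, 13.2 ± 1.46 FPKM in VHH-OD-Fc and 11.2 ± 1.67 FPKM in Ctrl (SD, n = 3 each).

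**Figure D2:**
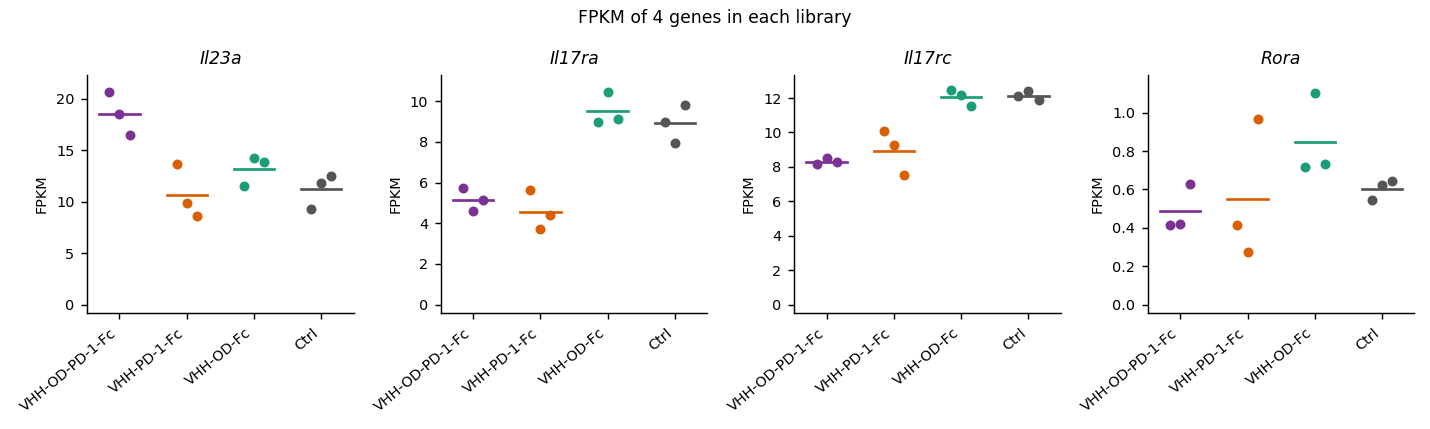
FPKM per library (vertical axis, linear, from 0) of Il23a, Il17ra, Il17rc and Rora in the 4 groups; points are libraries and bars are group means. Il23a was 16.5 to 20.7 FPKM in VHH-OD-PD-1-Fc and at most 14.2 FPKM elsewhere, while Il17ra and Il17rc were lower in both groups with the PD-1 arm.

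Against Ctrl, Il23a was higher in VHH-OD-PD-1-Fc by 0.68 on the log2(FPKM + 1) scale (SE 0.17, limma adjusted p = 0.00739), a direction called for 15.1% of the genes tested. Against VHH-OD-Fc it was higher by 0.46 (SE 0.17, limma adjusted p = 0.0452; 15.4% of genes were called higher). Neither single-arm construct changed it past the threshold: the log2 fold change against Ctrl was -0.08 for VHH-PD-1-Fc (limma adjusted p = 0.731) and 0.22 for VHH-OD-Fc (limma adjusted p = 1). For VHH-OD-Fc against Ctrl, 0% of all genes were called by limma, with 449 genes at an unadjusted p under 0.05.

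The comparisons of groups with and without the OD arm did not pass across all genes, and their doses differed too. Il23a differed by 0.76 between VHH-OD-PD-1-Fc and VHH-PD-1-Fc (SE 0.17, limma adjusted p = 0.0638; 0.839% of genes were called in either direction). The OD arm averaged over both backgrounds gave 0.49 (SE 0.12, limma adjusted p = 0.335; 0.0419% of genes were called). The unadjusted exact permutation test of that single value gave p = 0.015. The excess of VHH-OD-PD-1-Fc over the sum of both single arms was 0.54 (SE 0.23, limma adjusted p = 0.392; 0.112% of genes were called), so the larger effect of the construct with both arms was not shown to differ from additivity. Because each construct had its own dose, additivity is read here without matched doses.

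The rise of Il23a in VHH-OD-PD-1-Fc depended on how its libraries were counted. With these 3 counted as 1 sample, the limma adjusted p was 0.106 against Ctrl and 0.254 against VHH-OD-Fc. The call against VHH-OD-Fc was also lost after rescaling to TPM (0.25, limma adjusted p = 0.247), with the trend on exon length and GC content removed (0.41, limma adjusted p = 0.0755), and without any 1 of 8 libraries (limma adjusted p between 0.053 and 0.148). The difference from VHH-PD-1-Fc was called without replicate 1 of Ctrl (limma adjusted p = 0.0493) or without replicate 1 of VHH-PD-1-Fc (limma adjusted p = 0.0172).

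Neutrophil markers were also highest in VHH-OD-PD-1-Fc. The 8 markers summed to 1910 to 1970 FPKM in VHH-OD-PD-1-Fc, 405 to 1210 FPKM in VHH-PD-1-Fc, 463 to 1900 FPKM in VHH-OD-Fc and 632 to 926 FPKM in Ctrl. Against Ctrl, S100a8 and Retnlg of these markers were higher in VHH-OD-PD-1-Fc and the other 6 were not called, beside 15.1% of all genes called higher. The call of S100a8 was lost under 12 of 26 alternatives, and that of Retnlg was not checked under them. Within VHH-PD-1-Fc and VHH-OD-Fc the library with the most neutrophil markers had the most Il23a, which was not so within VHH-OD-PD-1-Fc, where the library with the highest sum had the lowest Il23a, or within Ctrl. The part of these cells in the Il23a values was not tested. The partner subunit of IL-23, Il12b, was far lower, at 0.174 ± 0.0559 FPKM in VHH-OD-PD-1-Fc, 0.197 ± 0.109 FPKM in VHH-PD-1-Fc, 0.105 ± 0.0419 FPKM in VHH-OD-Fc and 0.185 ± 0.261 FPKM in Ctrl (SD, n = 3 each).

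Both chains of the IL-17 receptor were lower in the groups with the PD-1 arm. Il17ra, the chain shared by several receptors of the family, had 5.73, 4.58 and 5.14 FPKM in VHH-OD-PD-1-Fc and 5.62, 3.69 and 4.39 FPKM in VHH-PD-1-Fc, against 8.99, 10.4 and 9.12 FPKM in VHH-OD-Fc and 8.99, 7.93 and 9.81 FPKM in Ctrl. Every library with the PD-1 arm was below every library without it. Il17rc, the chain that pairs with IL-17RA to bind IL-17A and IL-17F, had 8.16, 8.52 and 8.26 FPKM in VHH-OD-PD-1-Fc and 10.1, 9.26 and 7.5 FPKM in VHH-PD-1-Fc, against 12.5, 12.2 and 11.5 FPKM in VHH-OD-Fc and 12.1, 12.4 and 11.9 FPKM in Ctrl. Here too the libraries with and without the arm did not overlap. With this arm averaged, 38.5% of all genes tested were called lower. The share of all genes whose libraries separate was not computed, for these chains or for the other genes described here.

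Il17ra fell by 0.84 on the log2(FPKM + 1) scale in VHH-PD-1-Fc against Ctrl (SE 0.13, limma adjusted p = 0.000732; 32.3% of genes were called lower and 14.6% higher). Between VHH-OD-PD-1-Fc and Ctrl it fell by 0.69 (limma adjusted p = 0.00247; 27.1% of genes were called lower) and by 0.78 against VHH-OD-Fc (limma adjusted p = 0.00141; 24.5% of genes were called lower). Averaged over both backgrounds, Il17ra differed by -0.81 on that scale with the PD-1 arm (SE 0.09, limma adjusted p = 4.78e-05). In that comparison 38.5% of genes were called lower and 20.4% higher. The exact permutation test of that value gave p = 0.005, the smallest it can give. The genes of the table as a whole moved in these comparisons too, so the direction of a single gene is read beside those shares.

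Il17rc fell less. Its log2 fold change was -0.41 in VHH-PD-1-Fc against Ctrl (SE 0.10, limma adjusted p = 0.00618), -0.50 between VHH-OD-PD-1-Fc and Ctrl (limma adjusted p = 0.00256) and -0.49 between VHH-OD-PD-1-Fc and VHH-OD-Fc (limma adjusted p = 0.00307). The average over both backgrounds was -0.45 (SE 0.07, limma adjusted p = 0.000272), with an exact permutation p of 0.005. The OD arm left no called change in either chain: its average was 0.12 for Il17ra (limma adjusted p = 0.832) and -0.05 for Il17rc (limma adjusted p = 0.937).

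**Figure D3:**
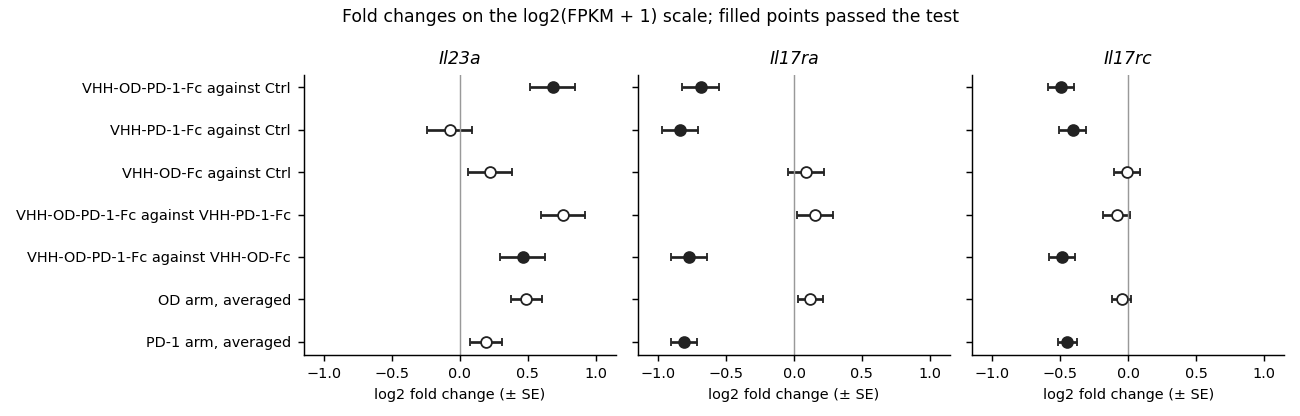
Log2 fold changes (horizontal axis, on the log2(FPKM + 1) scale) of Il23a, Il17ra and Il17rc in 7 comparisons, with bars for the standard error and filled points for a limma adjusted p under 0.05. Il17ra and Il17rc were lower in the 4 comparisons that set the PD-1 arm against its absence, and Il23a was called higher in VHH-OD-PD-1-Fc than in Ctrl and than in VHH-OD-Fc.

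The falls of both chains with the PD-1 arm averaged were called under every alternative run, but their size moved with the scaling. For Il17ra the value was -1.10 after rescaling to TPM, -0.59 after quantile normalization and -0.52 with the length and GC trend removed. For Il17rc it was -0.70 after rescaling to TPM, -0.29 after median-of-ratios scaling, -0.28 after quantile normalization and -0.32 with the length and GC trend removed. In VHH-PD-1-Fc against Ctrl alone, the call of Il17rc was lost after median-of-ratios scaling (-0.21, limma adjusted p = 0.142), after quantile normalization (-0.20, limma adjusted p = 0.138) and with only those 2 groups in the fit (limma adjusted p = 0.0643). With the 3 libraries of VHH-OD-PD-1-Fc taken as 1 sample, the calls of that group against Ctrl were lost for Il17ra (limma adjusted p = 0.0648) and Il17rc (limma adjusted p = 0.0816).

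Fold changes with the PD-1 arm depended on gene length across the whole table. With genes cut into 10 bins of equal number by exon length, the median log2 fold change was 0.42 in the bin of shortest genes and -0.34 in that of the longest. Il17ra, at 8662 bases of exon, lay in a bin of 1353 genes with a median of -0.31, of which 59.5% were called lower. Il17rc, at 2671 bases, lay in a bin with a median of -0.08, of which 31% were called lower. Il23a, at 2247 bases, lay in a bin with a median of 0.05. Both receptor chains were thus below the median of genes of their own length, and the part of length in their falls was tested only through the trend-removed values above.

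**Figure D4:**
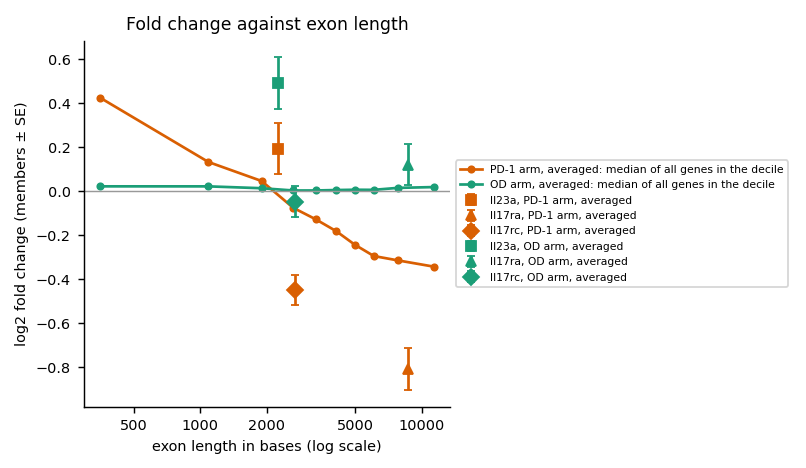
Log2 fold change (vertical axis) against exon length in bases (horizontal axis, log scale); lines join the medians of all genes in each of 10 length bins and symbols are Il23a, Il17ra and Il17rc with standard errors. With the PD-1 arm the medians run from 0.42 to -0.34 and Il17ra and Il17rc lie below the line; with the OD arm the line stays near 0.

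Fibroblast and endothelial markers were lower in the same libraries as the receptor chains. The 8 fibroblast markers summed to 545 to 549 FPKM in VHH-OD-PD-1-Fc and 222 to 458 FPKM in VHH-PD-1-Fc, against 679 to 1100 FPKM in VHH-OD-Fc and 569 to 805 FPKM in Ctrl. For the PD-1 arm averaged, 8 of 8 fibroblast markers and 4 of 5 tested endothelial markers were called lower, beside 38.5% of all genes. Between VHH-OD-PD-1-Fc and Ctrl, 2 of 8 and 4 of 5 were called lower, beside 27.1% of all genes. The endothelial markers summed to 16.1 to 18.2 FPKM in VHH-OD-PD-1-Fc and 14.1 to 18.4 FPKM in VHH-PD-1-Fc, against 29.8 to 40.8 FPKM in VHH-OD-Fc and 24.5 to 35.2 FPKM in Ctrl. No marker of either list was at 0 in all libraries of a group, and the part of these cells in the receptor values was not tested. Other cell types moved less with the PD-1 arm averaged. Of 8 macrophage markers 2 were called higher and 1 lower, and of 8 neutrophil markers 1 higher and 2 lower. Of 4 tested dendritic cell markers 0 were higher and 1 lower, and of 7 tumour epithelium markers 1 was higher and 0 lower. Their part was not tested either.

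The order of levels among the members was similar in the groups, apart from Il23a. In VHH-OD-PD-1-Fc it led with 18.6 FPKM, above Il17rc with 8.31 FPKM and Il17ra with 5.15 FPKM, and the libraries of these genes did not overlap. In VHH-PD-1-Fc, Il23a with 10.7 FPKM and Il17rc with 8.95 FPKM overlapped, and Il17ra with 4.57 FPKM was below both. In VHH-OD-Fc, Il23a with 13.2 FPKM and Il17rc with 12.1 FPKM overlapped above Il17ra with 9.51 FPKM. In Ctrl, Il17rc with 12.1 FPKM, Il23a with 11.2 FPKM and Il17ra with 8.91 FPKM followed each other, and the ranges of neighbours overlapped. Rora came next in every group at under 1 FPKM on average, followed by Il17f and then by the other 3.

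The genes whose levels were most like those of each tested member over the 12 libraries were named as a description, with unnamed gene models and pseudogenes left out. For Il23a, Pearson's r on the log2(FPKM + 1) scale was 0.95 with Pxdc1, and between 0.85 and 0.89 with Kcmf1, Ddx28, Mcpt8 (a protease of basophils) and Retnlg (a resistin-like protein of neutrophils). For Il17ra it was 0.98 with each of Lsm14a, Ambra1, Cpsf3, Kank1 and Srsf5. For Il17rc it was 0.98 to 0.99 with Acadvl, Eml2, Tmem198b, Colgalt1 and Zscan25. These values are over all 12 libraries and were not computed within groups.

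The intracellular pathway below the receptor was fully measurable, with all 16 listed signalling genes tested. The PD-1 arm averaged left 8 lower and 2 higher, beside 38.5% and 20.4% of all genes, with a median log2 fold change of -0.34 beside -0.16 for all genes. Tab2, an adaptor of the kinase TAK1, fell by 0.78 (SE 0.08, limma adjusted p = 2.53e-05), and Usp25, a deubiquitinase, fell by 0.87 (limma adjusted p = 0.000129). Map3k7, which encodes TAK1 itself, fell by 0.47 and Traf3 by 0.38, and both calls were lost with the length and GC trend removed. The 2 higher genes were Rela, the p65 subunit of NF-kappa B, at 0.28 (limma adjusted p = 0.000808), and Traf4 at 0.47 (limma adjusted p = 0.00276), the second of them named after its values were seen. The split of 2 higher and 8 lower became 0 and 11 after rescaling to TPM and 4 and 3 after quantile normalization or with the length and GC trend removed.

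Tab2 had the smallest p of the 16 signalling genes with the PD-1 arm averaged (limma), so its fall is not typical of the list. It had 12.3, 12.4 and 12.2 FPKM in VHH-OD-PD-1-Fc and 12.7, 9.11 and 12.7 FPKM in VHH-PD-1-Fc, against 20.3, 20.9 and 22.6 FPKM in VHH-OD-Fc and 20.9, 19.7 and 21.7 FPKM in Ctrl. Libraries with and without the PD-1 arm did not overlap. By single comparison, 6 of 16 genes were lower and 1 higher between VHH-OD-PD-1-Fc and Ctrl, beside 27.1% and 15.1% of all genes. With the 3 libraries of VHH-OD-PD-1-Fc taken as 1 sample, 1 was lower and 0 were higher. Against Ctrl, VHH-PD-1-Fc had 9 lower and 2 higher, beside 32.3% and 14.6% of all genes, and VHH-OD-Fc had none called (limma).

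Among genes that IL-17 is known to induce in stroma and epithelium, 6 of 16 tested were called lower in VHH-PD-1-Fc against Ctrl and none higher, beside 32.3% and 14.6% of all genes. The median log2 fold change of the 16 was -1.19, or -0.66 without replicate 1 of Ctrl, replicate 2 of VHH-OD-Fc and replicate 2 of VHH-PD-1-Fc together. Ptgs2, which encodes the prostaglandin enzyme COX-2, fell by 2.05 (limma adjusted p = 0.00169), and the monocyte chemokines Ccl2 and Ccl7 fell by 2.04 (limma adjusted p = 0.00237) and 2.07 (limma adjusted p = 0.00264). With library weights the value of Ccl2 was -1.34 and its call was lost (limma adjusted p = 0.0529). Between VHH-OD-PD-1-Fc and Ctrl the median was 0.26, with 1 gene higher and 1 lower, beside 15.1% and 27.1% of all genes. The higher one was S100a8, a calcium-binding protein of neutrophils, at 1.43 (limma adjusted p = 0.0344), and the lower one was the metalloreductase Steap4, at -0.96 (limma adjusted p = 0.0348). The call of S100a8 was lost under 12 of 26 alternatives and that of Steap4 under 11, both with the 3 libraries as 1 sample.

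Csf3, the growth factor for neutrophils, had 318, 297 and 299 FPKM in VHH-OD-PD-1-Fc, 240, 44.3 and 119 FPKM in VHH-PD-1-Fc, 52.3, 130 and 178 FPKM in VHH-OD-Fc, and 139, 109 and 115 FPKM in Ctrl. All 3 libraries of VHH-OD-PD-1-Fc stood above the 9 others, and those of VHH-PD-1-Fc lay on both sides of Ctrl. It was called higher against VHH-OD-Fc (1.51, limma adjusted p = 0.0437), a call lost under 16 of 26 alternatives, among them these 3 libraries as 1 sample (limma adjusted p = 0.269) and leaving out replicate 1 of VHH-OD-Fc (0.998, limma adjusted p = 0.162). Between VHH-OD-PD-1-Fc and VHH-PD-1-Fc the list had a median log2 fold change of 1.35 and no called gene. With the OD arm averaged its median was 0.68 and again no gene was called. No gene of the list was thus shown to differ in these comparisons of the OD arm. Between VHH-OD-PD-1-Fc and VHH-OD-Fc, 1 gene of the list was called higher and 2 lower, beside 15.4% and 24.5% of all genes.

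Averaged over both backgrounds, the PD-1 arm left 6 of the 16 IL-17-induced genes lower and none higher, close to the 38.5% of all genes called lower, with a median of -0.48. Steap4 fell by 1.40 (limma adjusted p = 0.000407), Ptgs2 by 1.22 (limma adjusted p = 0.00265), the matrix protease Mmp9 by 1.19 (limma adjusted p = 0.00287) and Ccl2 by 1.18 (limma adjusted p = 0.00462). Without replicate 1 of Ctrl, replicate 2 of VHH-OD-Fc and replicate 2 of VHH-PD-1-Fc together, 5 were lower and 4 higher, with a median of -0.20.

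Of the cytokines and receptors listed around the induction of type 17 cells, which also include Il12a and Ebi3, 11 of 14 could be tested. With the PD-1 arm averaged 7 were lower and 1 higher, beside 38.5% and 20.4% of all genes, with a median of -0.48. Il21r, the IL-21 receptor, had 0.936, 0.645 and 0.815 FPKM in VHH-OD-PD-1-Fc and 0.481, 0.573 and 0.431 FPKM in VHH-PD-1-Fc, against 2.2, 2.56 and 1.45 FPKM in VHH-OD-Fc and 6.5, 1.98 and 3.27 FPKM in Ctrl. It was lower in every library with the arm, with a log2 fold change of -1.19 (limma adjusted p = 0.000391). Il6st (the shared chain gp130, -0.55), Tgfbr2 (-0.46) and Il1r1 (-0.50) were also called lower, and each of these 3 calls was lost with the length and GC trend removed. Under that alternative the list had 2 lower genes and 1 higher. Without that removal, the gene that was higher was Tgfb1 (0.27, limma adjusted p = 0.0151), named after its value was seen. Its call was lost after rescaling to TPM, where no gene of the list was called higher. In VHH-PD-1-Fc against Ctrl, Il1b, an inflammatory cytokine that acts with IL-23, fell by 1.52 (limma adjusted p = 0.0126). That call was lost with only these groups in the fit (limma adjusted p = 0.0617) and, at -0.74, without replicate 1 of Ctrl, replicate 2 of VHH-OD-Fc and replicate 2 of VHH-PD-1-Fc together (limma adjusted p = 0.0557).

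Of 10 listed type 17 transcription factors, 7 could be tested and 2 were lower with the PD-1 arm averaged, a smaller share than the 38.5% of all genes, with a median of -0.18. Ahr, the aryl hydrocarbon receptor that supports IL-22 production in type 17 cells, had 2.72, 2.85 and 2.81 FPKM in VHH-OD-PD-1-Fc, 6.74, 3.38 and 9.25 FPKM in VHH-PD-1-Fc, 8.69, 7.17 and 7.76 FPKM in VHH-OD-Fc, and 7.55, 6.37 and 6.37 FPKM in Ctrl. It was low in VHH-OD-PD-1-Fc and in 1 library of VHH-PD-1-Fc. Averaged over both backgrounds its log2 fold change was -0.68 (limma adjusted p = 0.00482), and between VHH-OD-PD-1-Fc and Ctrl alone -1.03 (limma adjusted p = 0.00579, or 0.106 with the 3 libraries as 1 sample). Nfkbiz, which encodes the NF-kappa B cofactor I kappa B zeta, was the other, at -0.84 (limma adjusted p = 0.0228), a call lost after median-of-ratios scaling (limma adjusted p = 0.0538), when VHH-OD-PD-1-Fc counted as 1 sample (limma adjusted p = 0.102), without replicate 2 of Ctrl (limma adjusted p = 0.0503) and with the length and GC trend removed (limma adjusted p = 0.084).

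Of 11 tested clock and metabolic genes that RORs bind, 7 were called lower with the PD-1 arm averaged and none higher, beside 38.5% and 20.4% of all genes, with a median of -0.42. The split was 0 higher and 8 lower after rescaling to TPM, 0 and 5 after median-of-ratios scaling, and 1 and 4 of 10 with the length and GC trend removed. Per2, a repressor of the clock, had 1.47, 1.37 and 1.5 FPKM in VHH-OD-PD-1-Fc and 1.74, 1.31 and 1.02 FPKM in VHH-PD-1-Fc, against 2.78, 2.88 and 2.99 FPKM in VHH-OD-Fc and 3.72, 2.73 and 3.17 FPKM in Ctrl. It was lower in every library with the arm, by 0.75 (SE 0.09, limma adjusted p = 5.34e-05). The clock repressor Ciart fell by 0.79 (limma adjusted p = 0.00624) and the clock output factor Dbp by 0.64 (limma adjusted p = 0.00642). Nr1d2, whose product REV-ERB beta competes with RORs for the same DNA element, fell by 0.67 (limma adjusted p = 0.00641), a call lost with that trend removed. Clock, the partner of BMAL1, was called lower in VHH-PD-1-Fc against Ctrl (-0.36, limma adjusted p = 0.0426) and turned to 0.08 with that trend removed. Bmal1, the core activator that RORs induce, was called lower between VHH-OD-PD-1-Fc and VHH-OD-Fc (-0.38, limma adjusted p = 0.0381), a call lost under 12 of 25 alternatives, among them median-of-ratios scaling (limma adjusted p = 0.113) and leaving out any 1 library of either group. The OD arm averaged changed none of the 11 past the threshold (limma), with a median of 0.15. The labels do not give the time of day of sampling.

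Of the other IL-17 family cytokines, IL-22 and their receptors, 1 of 10 was high enough to test. Il17d, a cytokine of the family made outside lymphocytes, had 1.97, 2.26 and 1.68 FPKM in VHH-OD-PD-1-Fc, 5.1, 6.12 and 2.31 FPKM in VHH-PD-1-Fc, 1.9, 2.46 and 1.67 FPKM in VHH-OD-Fc, and 1.43, 2.6 and 2.78 FPKM in Ctrl. In VHH-PD-1-Fc 2 libraries were high and the third overlapped with Ctrl. Its rise there was 0.71 (limma adjusted p = 0.0459), and it was lost under 19 of 26 alternatives, with 0.28 (limma adjusted p = 0.397) without replicate 1 of Ctrl, replicate 2 of VHH-OD-Fc and replicate 2 of VHH-PD-1-Fc together.

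**Figure D5:**
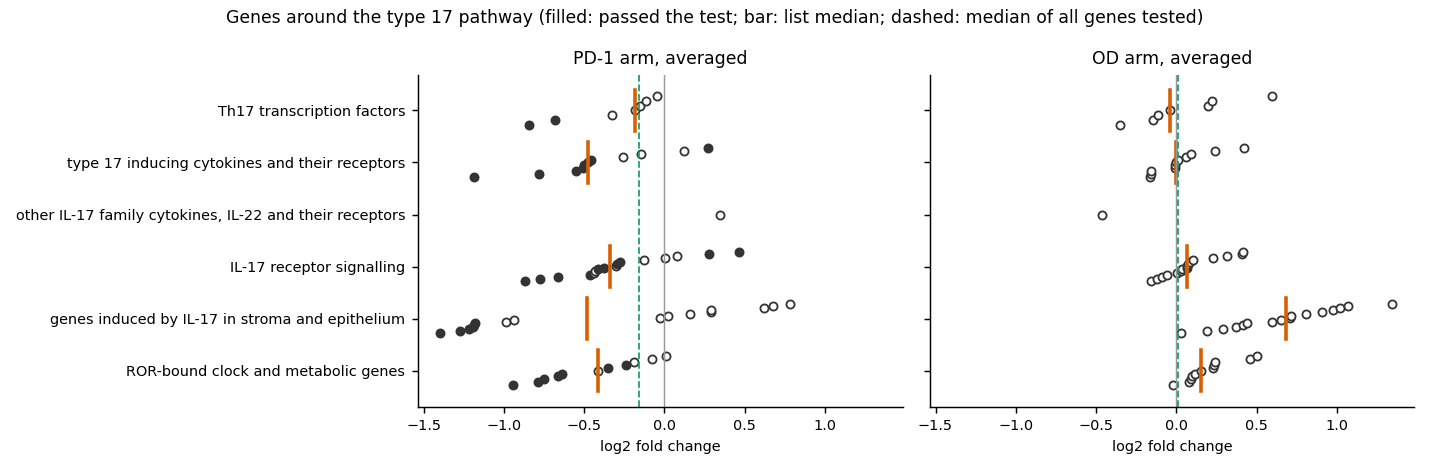
Log2 fold changes (horizontal axis) of the tested genes of 6 lists around the type 17 pathway, for the PD-1 arm averaged and the OD arm averaged; filled points passed a limma adjusted p under 0.05, bars are list medians and the dashed line is the median of all genes tested. With the PD-1 arm most called genes lie below 0, with list medians from -0.18 to -0.48 in the lists of more than 1 gene, although the signalling list had 4 higher and 3 lower after quantile normalization; with the OD arm no gene is filled.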

How the data were processed

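RNA sequencing of 12 libraries of tumour tissue, poly(A)-selected and read as pairs of 150 bp, was analysed from the gene table of FPKM values that the authors deposited; the tool that made them, its annotation and its use of strand were not given in the sources used here. The submitters' processing notes name fastp 0.22.0, HISAT2 2.2.1 and the build GRCh38, a human build, although the symbols are those of mouse. Whole reads were recovered from each deposited FPKM value, the exon length in GENCODE M21 and a depth fitted per library: 92.4% to 93.9% of low values in each library came out within 0.05 of a whole read, for 43600000 to 60900000 reads, and 88.4% of symbols matched that annotation. These reads describe depth and floors only, since they rest on an annotation chosen here; intervals of counting do not cover other errors. A count of 0 was taken to allow 3 reads, a floor that is too low where both mates of a pair were counted.

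Groups were taken from the labels. With R 4.3.3 and limma 3.58.1, log2(FPKM + 1) of all 12 libraries was fitted with a mean per group and a variance trend, after a filter of 1 FPKM in 3 libraries that left 14306 of 41009 genes; with 1 added, differences of low genes come out smaller than they are. P-values were two-sided and adjusted by Benjamini-Hochberg over all genes tested. The averaged arms are means of the 2 contrasts that differ by that arm, although the doses differed in them too. The test was first tried on simulated data. Named genes were the members, up to 4 called genes of smallest p per list and comparison, and the 5 genes most correlated with each tested member, except where stated. Unnamed gene models and pseudogenes were left out of the correlated genes. The members and the lists were chosen with earlier results of these data known. A gene of the transcription factor list is not reported here. Alternatives were another pseudocount or filter, other scalings, weights, a replicate block, libraries left out and, chosen after seeing the data, removal of the trend on exon length and GC content. The labels do not say that replicate numbers pair the libraries, and 1 of 18 same-numbered pairs had a correlation of deviations over 0.1. That check cannot exclude a pairing, as the libraries of VHH-OD-PD-1-Fc deviate little from their mean.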

Additional observations from a re-analysis of the deposited data

How the results depend on the processing

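Under 25 alternatives the falls of Il17ra and Il17rc with the PD-1 arm averaged were called each time. The number of members called in VHH-PD-1-Fc against Ctrl was 2, and 1 after median-of-ratios scaling, after quantile normalization and with 2 groups in the fit. Counting the 3 VHH-OD-PD-1-Fc libraries as 1 sample left 0 members called against Ctrl and 0 against VHH-OD-Fc, where 3 had been called in each. That setting also cut the calls over all genes, as given at the end of this section. Leaving out single libraries gave 0 to 1 members between VHH-OD-PD-1-Fc and VHH-PD-1-Fc, where none was called with all libraries. Among the low members, where 0 passed the exact test, 1 did after rescaling to TPM, 1 after median-of-ratios scaling, and 0 to 2 without single libraries.

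Uncalled values changed sign as follows. Il17ra in VHH-OD-Fc against Ctrl was -0.0152 with library weights. Il17rc there was 0.0279 after median-of-ratios scaling, 0.0267 after quantile normalization, 0.0230 with library weights, 0.0224 with the length and GC trend removed and -0.0313 to 0.0209 without single libraries. Il23a in VHH-PD-1-Fc against Ctrl was 0.1285 after median-of-ratios scaling, 0.1289 after quantile normalization and -0.2510 to 0.0568 without single libraries, and with the PD-1 arm averaged it was -0.0236 after rescaling to TPM, but 0.36 (called) after median-of-ratios scaling. The difference from additivity of Il17ra was -0.0112 after median-of-ratios scaling, -0.0260 after quantile normalization and -0.0503 to 0.1983 without single libraries; that of Il17rc was -0.1866 to 0.0040 without single libraries. Rora with the OD arm was -0.0449 without 3 libraries together. The called fall of Clock in VHH-PD-1-Fc against Ctrl became 0.0819 with the length and GC trend removed. The cause of these shifts was not tested.

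The replicate block ended the call of Il23a between VHH-OD-PD-1-Fc and VHH-OD-Fc (limma adjusted p = 0.0708). It also ended those of S100a8 (limma adjusted p = 0.0552), Steap4 (limma adjusted p = 0.0573) and Csf3 (limma adjusted p = 0.06). No other call changed among the named genes that were checked under it. The calls of Traf4, Tgfb1 and Retnlg, and that of Rela with the PD-1 arm averaged, were not checked under it. Same-numbered libraries correlated at -0.154 to 0.184, and differently numbered ones reached -0.4649 and 0.4342. These values cannot decide whether a number marks a shared day or animal.

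Over all genes, VHH-PD-1-Fc against Ctrl gave 6707 calls, or 3821 with only its 2 groups in the fit. VHH-OD-PD-1-Fc against Ctrl gave 6036 calls, 9901 with library weights and 1329 with its libraries as 1 sample; against VHH-OD-Fc it gave 5712, 8716 and 1098. Between VHH-OD-PD-1-Fc and VHH-PD-1-Fc 120 genes were called, 28 with the replicate block and 3 to 538 across all alternatives. Additivity gave 16, or 3 to 105, and the OD arm averaged 6, or 3 to 19. VHH-OD-Fc against Ctrl gave 0, or up to 4. The PD-1 arm averaged gave 8423, or 13346 without a filter. Between VHH-PD-1-Fc and Ctrl 2092 genes were higher and 4615 lower, against 1346 and 6800 by TPM and 3145 and 2879 by median of ratios. For VHH-OD-PD-1-Fc against Ctrl the split was 2158 higher and 3878 lower, 1415 and 6192 by TPM, and 3006 and 2593 by median of ratios; against VHH-OD-Fc it was 2209 and 3503, 1369 and 5616, and 2888 and 2537. Il17a, Il23r and Ccr6 had at most 16 reads in a library, so the depth limits what their tests could detect.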
